A study of Mus musculus with 8 samples.

Results

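Axon guidance ligands and receptors were examined in the epithelium of dorsal skin from 8 E15.5 mouse embryos, 4 with the genotype Foxi3-/- and 4 with Foxi3+/+. The set holds every gene of the deposited table named as a semaphorin, plexin, neuropilin, ephrin, Eph receptor, Slit, Robo, netrin, Dcc or Unc5a to Unc5d, which gave 69 genes of 26165, each with 1 row. The embryos came from 4 C57/Bl6 litters that held both genotypes, and the null is described as total, so that Foxi3 was lost from every tissue and not from epithelium alone. Null embryos were picked out by the missing jaw and then genotyped, wild-type embryos by genotyping. The epithelium was lifted from the dermis with dispase and each embryo was hybridised to 1 array. No source used here ties an embryo to a litter, so the embryos were treated as independent.

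Semaphorins signal through plexins, and the secreted class 3 semaphorins bind neuropilins as co-receptors. Ephrins are membrane-bound ligands of the Eph receptor tyrosine kinases, with A ephrins held by a lipid anchor and B ephrins spanning the membrane. Slit proteins bind Robo receptors, and netrins bind Dcc and the Unc5 receptors. These families are named for steering growing axons, and in skin they also act on vessels, on sensory nerve endings and on contacts between keratinocytes.

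Values are log2 intensities after RMA normalisation. An intensity depends on a gene's probes, so levels were compared between embryos and not between genes. All 9 epidermal markers examined (Krt5, Krt14, Krt15, Trp63, Cdh1, Epcam, Itga6, Krt1 and Krt10) exceeded the wild-type median gene, with list means of 10.89 to 10.93 in null and 10.91 to 10.94 in wild-type embryos. None of 8 endothelial or 7 neuronal markers did. Lists of other cells did in part, with 7 of 12 dermal fibroblast, 5 of 8 Schwann cell and 5 of 6 melanoblast markers above that median. So were 3 of 8 leukocyte, 3 of 8 skeletal muscle and 3 of 5 Merkel cell markers. The dermal fibroblast list stood high in Foxi3 null 2 and the dissociation stress list in both samples numbered 4, as described below beside the genes that moved with them. A list of 5 sex-linked genes held Xist and the Y-linked Ddx3y, Eif2s3y, Uty and Kdm5d. Its mean was high in Foxi3 null 3, wild type 3 and wild type 4, at 6.23, 6.28 and 6.44 against 3.74 to 4.02. Of its differences, 1 lay above 0 and 4 below. By these genes, sex was uneven between the groups. Foxi3 itself was at 8.62, 8.43, 8.45 and 8.19 in Foxi3 null 1 to 4, and 8.96, 9.07, 9.20 and 8.55 in wild type 1 to 4, and nothing at hand says whether its probes lie in the deleted stretch, so this level does not check the labels. In such whole-tissue samples, fewer cells of a type and less RNA per cell cannot be told apart.

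None of the 69 guidance genes passed the test over all 26165 genes (limma, adjusted p under 0.05), where 0.0115% of all genes passed. The lowest adjusted p among them was 0.935, for Nrp2. At an unadjusted p under 0.05, 11 guidance genes were higher and 1 was lower in the null group, which is 15.9% and 1.45% of the 69. Over all genes the same threshold held for 1.69% on the higher side and 2.03% on the lower. The 11 were 6 semaphorins (Sema3a, Sema3d, Sema3e, Sema5a, Sema5b and Sema6d), 2 plexins (Plxna1 and Plxnc1), Efnb3, Epha4 and Ntn3, and the 1 was Nrp2. The count of 11 depended on single embryos. It was 3 without Foxi3 null 1, Foxi3 null 3 or wild type 4, 4 without wild type 2, 5 without wild type 1, 7 without Foxi3 null 2, 9 without wild type 3 and 14 without Foxi3 null 4. The share of all genes on that side was 1.35% to 1.61% in the repeats that gave 3 to 7, 2.81% without wild type 3 and 3.04% without Foxi3 null 4. The count was 7 after centring each array on its median, against 1.97% of all genes. All 12 genes kept their direction whichever embryo was left out, which their choice by p in the same embryos makes likely. Only Nrp2, Efnb3 and Sema6d, 3 of the 12, stayed under an unadjusted p of 0.05 each time.

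Across the whole set the differences were centred near 0. Of the 69, 35 lay above 0 (50.7%, against 46% of all genes), and the median difference was 0.0071 on the log2 scale, against −0.0083 over all genes. The 95% confidence interval of the difference lay within a 1.5-fold change in either direction for 62 of 69 guidance genes (89.9%, against 89.5% of all genes). Below the median of all genes, 5.22, lay the means of 16 of the 69, called dim here, and all 16 had intervals within that bound. These 16 are among the 62, and a narrow interval at such a low level does not show that expression was unchanged. The dim genes were Dcc, Epha3, Epha5, Epha6, Ephb1, Ntn5, Plxnb3, Robo3, Robo4, Sema3g, Sema4f, Sema7a, Slit1, Slit2, Unc5c and Unc5d.

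**Figure D1:**
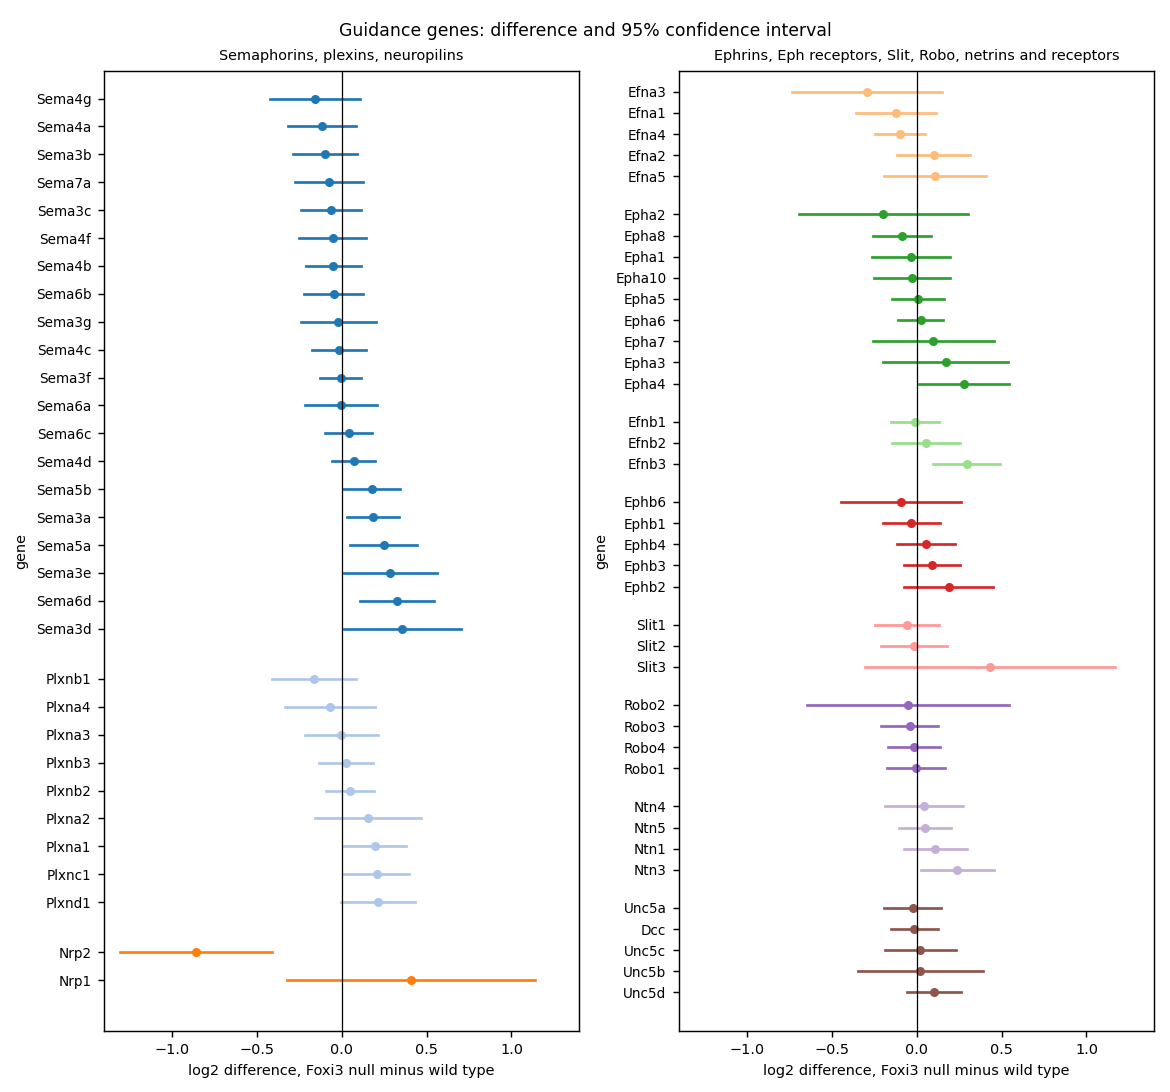
Log2 difference, Foxi3 null minus wild type, for each of the 69 guidance genes, coloured by family, with points at the estimate and bars for the 95% confidence interval of the limma fit (4 embryos per group). Nrp2 at −0.86 stands furthest from 0, and the widest intervals are those of Nrp1, Slit3 and Robo2.

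The neuropilins, which pair with plexins to receive class 3 semaphorins, lay on opposite sides of 0. Nrp2 (ENSMUSG00000025969), known as a receptor for Sema3f and Sema3c, was at 6.10, 6.18, 5.39 and 6.09 in Foxi3 null 1 to 4, and 7.00, 6.80, 6.39 and 7.00 in wild type 1 to 4. All 4 null embryos were below all 4 wild-type embryos, and Nrp2 was the only guidance gene for which this held on the lower side, against 1.07% of all genes. The difference was −0.86 (SE 0.20, 95% confidence interval −1.31 to −0.41, limma adjusted p = 0.935), between means of 5.94 ± 0.37 in the null and 6.80 ± 0.29 in the wild-type group (SD, n = 4 each). The lowest embryo of each group was the one numbered 3. Left-out embryos moved the difference between −0.99 (without wild type 3) and −0.67 (without Foxi3 null 3), and a sex covariate gave −0.97. Marker lists of other cell types lay on either side of 0. All 5 Merkel cell markers had differences below 0 (median −0.47, 2 at an unadjusted p under 0.05, 1 with groups apart), and their mean was 5.67 to 6.06 in null and 5.97 to 6.47 in wild-type embryos. All 8 skeletal muscle markers did too (median −0.12, 2 at an unadjusted p under 0.05), with means of 4.81 to 4.90 in null and 4.89 to 5.16 in wild-type embryos. Of 9 hair placode and germ markers, 4 lay above 0 and 5 below (median −0.0051). At an unadjusted p under 0.05, 1 was higher and 3 were lower, with groups apart for 1 and 2 of them. The list mean was 6.92 to 7.01 in null and 6.95 to 7.03 in wild-type embryos. On the other side, all 12 dermal fibroblast markers (median 0.49) and 7 of 8 Schwann cell markers (median 0.10) lay above 0. The fibroblast mean was 8.36 in Foxi3 null 2, 6.24 to 6.66 in the other null embryos and 6.35 to 6.76 in wild-type embryos. The Schwann cell mean was 5.92 to 6.13 in null and 5.83 to 5.94 in wild-type embryos. Over all genes, an unadjusted p under 0.05 held for 1.69% on the higher and 2.03% on the lower side. Groups were apart for 0.871% and 1.07%. No gene of these lists passed over all genes, and their part in the Nrp2 values was not tested.

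Nrp1, the receptor of Sema3a, was at 6.67, 7.71, 6.09 and 6.29 in Foxi3 null 1 to 4, and 6.28, 6.40, 5.87 and 6.56 in wild type 1 to 4. Foxi3 null 2 was far above the other embryos, whose ranges overlapped, and the difference of 0.41 (SE 0.32, limma adjusted p = 1.00) was 0.069 without that embryo.

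Promoter sequences of 3 genes are shown because Nrp2 had the largest difference of the set, Sema3d the largest among those higher at an unadjusted p under 0.05, and Sema3a alone on the higher side combined such a p with groups that did not overlap. They are the 250 bases before the RefSeq start in GRCm38.p6, all on the plus strand and written 5′ to 3′, at chr1:62703067-62703316 for Nrp2, chr5:13396534-13396783 for Sema3a and chr5:12382916-12383165 for Sema3d. Capitals mark a match, on either strand, to a forkhead core (TGTTTAC or its variant TGTTTGC) or to the Tcf/Lef core (CTTTGAT), which do not overlap each other.
Nrp2: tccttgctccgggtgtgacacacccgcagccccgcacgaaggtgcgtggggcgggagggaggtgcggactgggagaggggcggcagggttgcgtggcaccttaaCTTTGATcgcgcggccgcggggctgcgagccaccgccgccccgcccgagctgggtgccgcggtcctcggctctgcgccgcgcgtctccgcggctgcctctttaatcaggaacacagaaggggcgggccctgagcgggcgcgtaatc
Sema3a: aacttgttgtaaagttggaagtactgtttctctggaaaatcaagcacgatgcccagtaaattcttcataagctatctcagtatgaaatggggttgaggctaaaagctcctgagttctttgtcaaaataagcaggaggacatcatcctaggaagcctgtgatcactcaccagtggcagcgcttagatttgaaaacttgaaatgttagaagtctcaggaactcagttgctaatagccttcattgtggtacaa
Sema3d: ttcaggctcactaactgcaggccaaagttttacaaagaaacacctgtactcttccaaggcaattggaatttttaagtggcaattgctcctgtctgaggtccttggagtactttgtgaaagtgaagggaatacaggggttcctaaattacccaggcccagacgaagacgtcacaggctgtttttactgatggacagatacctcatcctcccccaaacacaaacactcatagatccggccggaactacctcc
RefSeq windows of 300 bases, 250 before and 50 after the start, were found for 59 of the 69 genes. The core TGTTTAC was in none of the 59, against 4.05% of all 27025 genes with a window. TGTTTGC was in the windows of Efna2 and Epha7, against 5.76% of genes, and CTTTGAT in that of Nrp2, against 4.29%. TGTTTNC, which takes in both forkhead cores, was found for 5 of the 59 (22.8% of all genes), the E-box CAGGTG for 10 (22.6%) and the TATA box TATAAA for 2 (15.7%). The motifs in capitals were picked after a first search that had shown which genes matched, and an NF-kB site was also searched then and was not counted. A match is a run of letters in this window and no evidence of binding, and its absence says nothing about the factor.

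Class 3 semaphorins, secreted ligands that repel or attract axons and endothelial cells, included 3 of the 11 genes on the higher side. Sema3a (ENSMUSG00000028883), a repellent of sensory axons made by epidermis, was at 8.57, 8.44, 8.63 and 8.42 in Foxi3 null 1 to 4, and 8.35, 8.29, 8.38 and 8.30 in wild type 1 to 4. All null embryos were above all wild-type embryos, though by little, at a difference of 0.18 (SE 0.068, limma adjusted p = 1.00). Groups of this order were found for 2 guidance genes, Sema3a and Sema4d, against 0.871% of all genes. Sema3d (ENSMUSG00000040254) was at 8.15, 8.14, 8.23 and 7.70 in Foxi3 null 1 to 4, and 7.90, 7.62, 7.90 and 7.36 in wild type 1 to 4. In Sema3d the embryo numbered 4 was the lowest of each group, so that the groups overlapped while the difference was 0.36 (SE 0.15, limma adjusted p = 1.00). It was 0.25 without wild type 4 and 0.47 without Foxi3 null 4. Sema3e, a ligand that binds Plxnd1 directly, was at 6.31, 6.17, 6.66 and 6.19 in Foxi3 null 1 to 4, and 5.94, 5.92, 6.22 and 6.10 in wild type 1 to 4. Foxi3 null 3 was the highest for Sema3e and the other null embryos lay within or just above the wild-type range, at a difference of 0.29 (SE 0.12).

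The other class 3 genes lay nearer 0. Sema3f was at 9.92, 9.88, 9.89 and 9.89 in Foxi3 null 1 to 4, and 9.90, 9.86, 9.91 and 9.92 in wild type 1 to 4. All 8 embryos lay within a narrow band, and the difference of −0.0069 had a 95% confidence interval of −0.13 to 0.11. The estimate for its receptor Nrp2 was −0.86, and the difference between these estimates was not tested. Sema3b was at −0.099, Sema3c at −0.062 and Sema3g, which was dim, at −0.019, each with overlapping groups.

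Among the membrane-bound semaphorins, Sema6d and the pair of Sema5 genes were on the higher side. Sema6d (ENSMUSG00000027200), a ligand of Plxna1, was at 8.03, 8.08, 8.13 and 7.79 in Foxi3 null 1 to 4, and 7.75, 7.66, 7.81 and 7.52 in wild type 1 to 4. All null embryos but 1 were above every wild-type embryo while Foxi3 null 4 was just below wild type 3, at a difference of 0.33 (SE 0.097, 95% confidence interval 0.11 to 0.55, limma adjusted p = 1.00). Sema5a was at 8.14, 8.22, 8.04 and 7.91 in Foxi3 null 1 to 4, and 7.74, 7.87, 7.76 and 7.97 in wild type 1 to 4. For Sema5a, Foxi3 null 4 lay below wild type 4 and the difference was 0.25 (SE 0.087). Without Foxi3 null 2, the highest embryo for Sema5a, the difference was 0.20 (limma unadjusted p = 0.0579). Sema5b, the other class 5 gene, was at 6.21, 6.19, 6.38 and 6.26 in Foxi3 null 1 to 4, and 6.06, 6.01, 6.23 and 6.04 in wild type 1 to 4, and its difference of 0.18 (SE 0.075) had a single wild-type embryo, number 3, inside the null range. Both Sema5 proteins are known to bind Plxna1 and Plxna3 in the mouse retina.

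The remaining class 4, 6 and 7 genes lay between −0.16 and 0.071. Sema4d, the ligand of Plxnb1, was at 7.51, 7.48, 7.46 and 7.44 in Foxi3 null 1 to 4, and 7.43, 7.43, 7.40 and 7.34 in wild type 1 to 4. Its groups did not overlap, but the difference was only 0.071 (SE 0.056) and its unadjusted p was 0.235. Sema4b was at −0.049 (95% confidence interval −0.21 to 0.11), Sema4a at −0.11, Sema4g at −0.16, Sema4c at −0.014 and Sema4f at −0.054. Sema6a was at −0.0024, Sema6b at −0.047, Sema6c at 0.041 and Sema7a at −0.074. Over the 20 semaphorins, 8 lay above 0 and 12 below, with a median of −0.011.

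**Figure D2:**
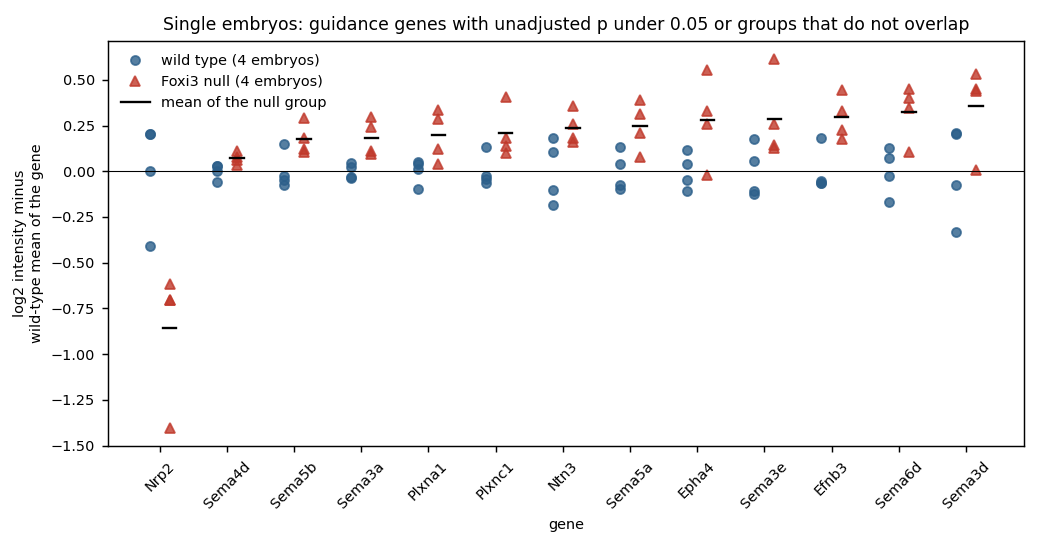
Log2 intensity of each embryo minus the wild-type mean of the gene, for the 12 guidance genes with an unadjusted p under 0.05 and for Sema4d, with circles for wild type, triangles for Foxi3 null and short lines at the null mean. The groups do not overlap for Nrp2, Sema3a and Sema4d, and the lowest null embryo for Nrp2 is 5.39 before the wild-type mean is taken off.

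Plexins, the receptors that carry the semaphorin signal into the cell, had 6 of 9 members above 0, with a median of 0.050. Plxna1 (ENSMUSG00000030084), a receptor used by neuropilins and by Sema6d, was at 10.17, 9.95, 10.11 and 9.87 in Foxi3 null 1 to 4, and 9.73, 9.84, 9.88 and 9.87 in wild type 1 to 4. Null 1, 2 and 3 were above the wild-type range and null 4 lay inside it, at a difference of 0.20 (SE 0.081). Plxnc1, the receptor of Sema7a, was at 7.58, 7.31, 7.36 and 7.27 in Foxi3 null 1 to 4, and 7.30, 7.15, 7.11 and 7.13 in wild type 1 to 4. Wild type 1 lay inside the null range for Plxnc1, and the difference was 0.21 (SE 0.084). Both had limma adjusted p = 1.00.

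Plxnd1, the receptor of Sema3e, was at 6.42, 6.58, 6.56 and 6.18 in Foxi3 null 1 to 4, and 6.17, 6.16, 6.33 and 6.21 in wild type 1 to 4. Its difference of 0.21 (SE 0.096) had an unadjusted p of 0.0543, with Foxi3 null 4 inside the wild-type range. Sema3e and Plxnd1 thus lay on the same side of 0, neither past the test. Plxnb2 was at 0.050, with a 95% confidence interval of −0.090 to 0.19. Plxna2 was at 0.16, Plxna4 at −0.070, Plxnb1 at −0.16 and Plxnb3 at 0.024, and Plxna3 was at −0.0015 with an interval of −0.21 to 0.21.

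Ephrins and Eph receptors, which act between touching cells and in epidermis are tied to keratinocyte adhesion and differentiation, held 2 genes on the higher side. Efnb3 (ENSMUSG00000003934), a transmembrane ephrin, was at 5.72, 5.99, 5.88 and 5.77 in Foxi3 null 1 to 4, and 5.49, 5.48, 5.73 and 5.48 in wild type 1 to 4. All null embryos except null 1 were above the wild-type range, null 1 falling just below wild type 3, and the difference was 0.29 (SE 0.087, 95% confidence interval 0.097 to 0.49, limma adjusted p = 1.00). Foxi3 null 2 was the highest of the 8 for Efnb3, and without it the difference was 0.24. The other B ephrins lay nearer 0, with Efnb2 at 0.056 (95% confidence interval −0.14 to 0.26) and Efnb1 at −0.0100 (−0.15 to 0.13).

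Epha4 (ENSMUSG00000026235), an Eph receptor that binds both A and B ephrins, Efnb3 among them, was at 9.02, 8.80, 8.73 and 8.44 in Foxi3 null 1 to 4, and 8.50, 8.36, 8.58 and 8.42 in wild type 1 to 4. Null 1, 2 and 3 were above the wild-type range and null 4 was inside it, at a difference of 0.28 (SE 0.12, limma adjusted p = 1.00). The remaining A receptors lay between −0.20 (Epha2) and 0.17 (Epha3). Epha3 was dim, and its difference was 0.011 without Foxi3 null 2, its highest embryo. Epha1 was at −0.033, Epha8 at −0.087, Epha7 at 0.098 and Epha10 at −0.028, while Epha5 and Epha6 were also dim. Among B receptors Ephb2 was at 0.19, Ephb3 at 0.089, Ephb4 at 0.055 and Ephb6, which lacks kinase activity, at −0.094, and the dim Ephb1 was at −0.032.

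The A ephrins gave no member at an unadjusted p under 0.05. Efna3 was at 10.48, 10.48, 10.16 and 10.90 in Foxi3 null 1 to 4, and 10.85, 10.88, 10.31 and 11.13 in wild type 1 to 4. The groups overlapped, each with its number 4 highest and its number 3 lowest, and the difference of −0.29 had a 95% confidence interval of −0.73 to 0.15. Efna4 was at −0.098 (SE 0.065), with Foxi3 null 1 inside the wild-type range and the other null embryos below it. Efna1, a ligand of Epha2, was at −0.12, Efna2 at 0.10 and Efna5 at 0.11.

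Slit ligands and Robo receptors held no member at an unadjusted p under 0.05. Slit3 was at 5.65, 6.92, 5.21 and 5.38 in Foxi3 null 1 to 4, and 5.42, 5.44, 5.19 and 5.38 in wild type 1 to 4, a difference of 0.43 (SE 0.33) that was 0.057 without Foxi3 null 2. Slit1 was at −0.059 and Slit2 at −0.016, both below the median of all genes. Robo1, a receptor for all Slits, was at 8.89, 8.87, 8.73 and 8.63 in Foxi3 null 1 to 4, and 8.78, 8.83, 8.72 and 8.80 in wild type 1 to 4, and its difference of −0.0040 had an interval of −0.17 to 0.17.

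Robo2, the other widely used Slit receptor, was at 5.24, 6.25, 4.94 and 4.92 in Foxi3 null 1 to 4, and 5.45, 5.39, 5.28 and 5.44 in wild type 1 to 4. Foxi3 null 2 was the highest of all embryos while the other 3 null embryos were below every wild-type embryo. The difference was −0.051 (SE 0.26) with all embryos and −0.36 (SE 0.099, limma adjusted p = 1.00) without null 2. Robo3 was at −0.042 and Robo4, an endothelial Robo, at −0.015, both dim.

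Netrins, secreted laminin-related ligands, had all 4 members above 0, with a median of 0.078. Ntn3 (ENSMUSG00000079662) was at 6.27, 6.35, 6.45 and 6.25 in Foxi3 null 1 to 4, and 5.99, 6.19, 6.27 and 5.91 in wild type 1 to 4. Wild type 3 lay above null 1 and null 4 and the other wild-type embryos were below every null embryo, and the difference was 0.24 (SE 0.095, limma adjusted p = 1.00). Ntn1, the netrin best known as a ligand of Dcc, was at 0.11 and at 0.039 without Foxi3 null 2, its highest embryo. Ntn4, which binds laminin in basement membranes, was at 0.043, and the dim Ntn5 at 0.047. Of the receptors, Unc5b was at 0.021 (95% confidence interval −0.35 to 0.39) and Unc5a at −0.025, while Unc5d at 0.10, Dcc at −0.013 and Unc5c at 0.021 were dim.

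Chosen after their values were seen, 4 guidance genes stood high in Foxi3 null 2. Nrp1, Slit3 and Robo2 exceeded every other embryo there by more than 0.5, which is 4.35% of the guidance genes against 0.608% of all genes, and the dim Epha3 was at 3.79, 4.39, 3.85 and 3.64 in Foxi3 null 1 to 4, and 3.59, 3.78, 3.98 and 3.63 in wild type 1 to 4. In all, 11 of 69 guidance genes (15.9%) were highest in null 2, against 7.72% of all genes. The mean of 12 dermal fibroblast markers was 6.66, 8.36, 6.24 and 6.43 in Foxi3 null 1 to 4, and 6.76, 6.49, 6.35 and 6.36 in wild type 1 to 4. Of these 12 markers, 11 were highest in null 2, and 7 of 12 exceeded the wild-type median gene. Their part in the guidance gene values was not tested. Neuronal markers also stood highest there, at a list mean of 4.55 against 3.92 to 4.09, although none of the 7 exceeded that median. The lists of endothelial, Schwann cell and leukocyte markers were highest in null 2 as well, at means of 4.41, 6.13 and 4.66, where the next embryos were at 4.31, 6.03 and 4.57. For Nrp2, null 2 was the highest of the null embryos at 6.18, and the difference was −0.86 with it and −0.94 without it.

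**Figure D3:**
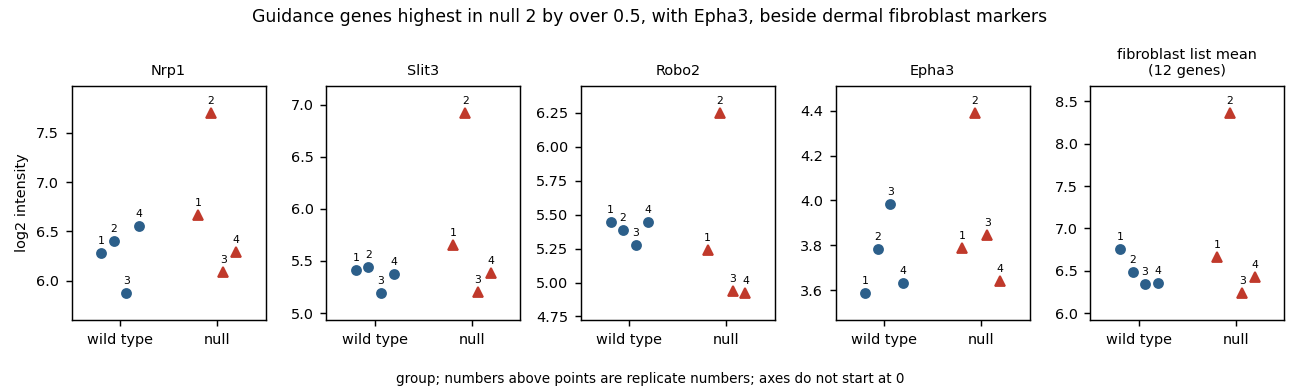
Log2 intensity of Nrp1, Slit3, Robo2 and Epha3 in each embryo, beside the mean of 12 dermal fibroblast markers, with circles for wild type, triangles for Foxi3 null and replicate numbers above the points. Foxi3 null 2 is the highest embryo in each panel, at 6.92 for Slit3 and 8.36 for the fibroblast mean.

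The samples numbered 4, also grouped after seeing the data, were the highest pair for 6 genes, namely Efna3, Epha1, Epha2, Ntn5, Sema7a and Unc5b. That is 8.7% of the guidance genes against 9.98% of all genes, so the share was near the background. The mean of 9 dissociation stress genes in the same order was 7.02, 7.02, 7.34 and 8.64 in Foxi3 null 1 to 4, and 7.49, 7.08, 7.42 and 9.60 in wild type 1 to 4. All 9 stress genes had differences below 0 (median −0.37), none at an unadjusted p under 0.05. Epha2, a receptor of Efna1, was at 7.68, 7.63, 7.54 and 8.25 in Foxi3 null 1 to 4, and 8.02, 7.98, 7.45 and 8.45 in wild type 1 to 4, so that embryos numbered 4 exceeded the rest of their groups by more than the group difference of −0.20. The same pair was lowest for 7 genes (Efna2, Efna5, Epha7, Ephb2, Ephb3, Plxna2 and Slit2), 10.1% against 7.6% of all genes. Whether stress bears on these levels was not tested. Without both of these samples, 9 genes were on the higher and 1 on the lower side at an unadjusted p under 0.05, against 2.35% and 4.1% of all genes.

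**Figure D4:**
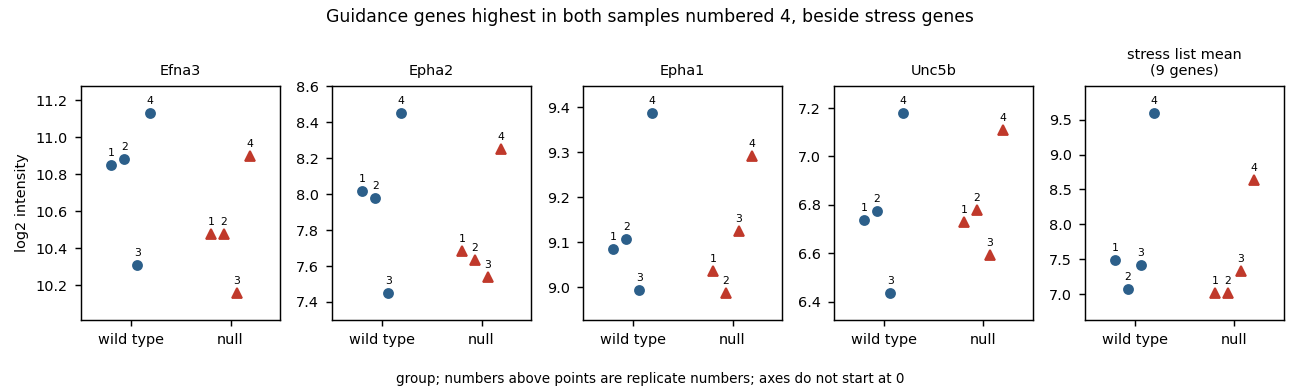
Log2 intensity of Efna3, Epha2, Epha1 and Unc5b, 4 of the 6 guidance genes highest in both samples numbered 4, beside the mean of 9 dissociation stress genes, with circles for wild type, triangles for Foxi3 null and replicate numbers above the points. Wild type 4 and Foxi3 null 4 stand above the other embryos in each panel, at 9.60 and 8.64 for the stress mean.

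Other genes of these pathways, co-receptors and the proteins that relay the signal to the cytoskeleton, were taken as a list of 58, of which 56 were measured. None passed over all genes, and at an unadjusted p under 0.05 there was 1 higher and 2 lower, where 1.69% and 2.03% of all genes were. Their median difference was −0.0018. Mical2 (ENSMUSG00000038244), which oxidises actin and belongs to a family that in Drosophila links plexin to the cytoskeleton, was at 5.35, 5.16, 5.03 and 5.40 in Foxi3 null 1 to 4, and 5.75, 5.84, 5.73 and 5.64 in wild type 1 to 4. All null embryos were below all wild-type embryos, at a difference of −0.51 (SE 0.095, limma adjusted p = 0.545). Of the 56, groups were apart for 1 gene on the lower side, Mical2, and for 1 on the higher side, Lrrc4c, against 1.07% and 0.871% of all genes.

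The netrin-G ligand genes Lrrc4c and Lrrc4 were at 0.20 and −0.24, both dim. In the semaphorin list Arhgef11, an exchange factor recruited by B plexins, was next to Mical2 at −0.12. In the Eph list the lowest unadjusted p belonged to Pdzrn3 at 0.14 and Nck1 at −0.077. In the Slit and netrin list they belonged to Trio at 0.16 and to the kinase gene Fyn at −0.26. Mical2 aside, of the genes in these sentences the Lrrc4 pair alone had an unadjusted p under 0.05, and all had limma adjusted p = 1.00.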

How the data were processed

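RNA from back skin epithelium of single embryos was labelled by an Affymetrix whole-transcript method, per the labels' protocols, on arrays named as MoEx-1_0-st-v1 per the file headers. The authors deposited log2 intensities per Ensembl gene that, per the submitters' processing notes, were made with RMA, a method that removes background, brings arrays to a shared scale and joins each gene's probes. The sources used here give no version, probe annotation or filter. Groups and replicate numbers came from sample titles. Symbols were those of the deposited table, whose deposited group means matched those recomputed here to within 7.5e-09. Left out were 8 array columns there whose names fit no sample label. Sample medians were 5.15 to 5.29. The number of arrays limits the precision.

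Groups were compared with lmFit and eBayes (limma 3.58.1, R 4.3.3) across all 26165 genes, two-sided, with Benjamini-Hochberg adjustment over all of them and no covariate. Differences are Foxi3 null minus wild type. The genes and lists were chosen with earlier results of these data known. Named were genes past the test, genes whose groups did not overlap, and in each of 11 families the 2 of lowest unadjusted p and the 2 of highest mean, other members completing families. In the other pathway lists the 2 of lowest unadjusted p were named. Of 58 pathway genes Draxin and Flrt3, and of the markers Tubb3 and Sox2, had no row by symbol. Promoters came from RefSeq (GRCm38.p6). Tried as alternatives were median centring, quantile normalisation, dropping dim genes, 1 row per symbol, array weights, trend with robust moderation, a replicate block, a sex covariate, an adjusted p under 0.1 and leaving out each sample, and, added after seeing the data, leaving out both samples numbered 4. The steps were tested on simulated data.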

Additional observations from a re-analysis of the deposited data

Results flagged for a closer look

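An embryo was singled out for a gene where its gap to the nearest other embryo of its group, as a share of the group's whole range, exceeded Dixon's 95% critical value for 4 samples. The value is given here as the gap share. This held for 8 of 138 gene and group combinations, against about 6.9 by chance at this threshold, so the number is near what chance gives. Nrp2 was lowest in Foxi3 null 3, at 5.39 against 6.09 to 6.18 in the rest of its group (gap share 0.89). Without that embryo the Nrp2 difference was −0.67. Efnb3 was highest in wild type 3, at 5.73 against 5.48 to 5.49 in the rest of its group (gap share 0.941). Without it the Efnb3 difference was 0.35. Efna5 was lowest in Foxi3 null 4, at 8.41 against 8.89 to 8.97 in the rest of its group (gap share 0.852). Plxna3 was highest in wild type 4, at 7.78 against 7.39 to 7.43 in the rest of its group (gap share 0.88). Sema4a was lowest in Foxi3 null 3, at 7.75 against 8.01 to 8.06 in the rest of its group (gap share 0.861). Sema4g was lowest in Foxi3 null 2, at 6.25 against 6.47 to 6.50 in the rest of its group (gap share 0.899). The dim genes Sema3g and Sema4f were both highest in Foxi3 null 4. Sema3g was highest in that embryo, at 4.94 against 4.56 to 4.60 in the rest of its group (gap share 0.891). Sema4f was highest in that embryo, at 4.81 against 4.64 to 4.66 in the rest of its group (gap share 0.874).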

How the results depend on the processing

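The count of guidance genes passing over all genes was 0 under every alternative run, as was that of the other pathway genes. The count at an unadjusted p under 0.05 was 4 to 15 when single samples were left out, that on the higher side 3 to 14 and that on the lower side 1 to 3, against 2.7% to 8.39%, 1.35% to 3.04% and 1.34% to 5.35% of all genes. The count of genes whose groups did not overlap was 3 to 13 in the same repeats, where fewer samples make such order more common (3.14% to 8.76% of all genes). After median centring 7 genes were on the higher side, against 1.97% of all genes. With a sex covariate, 10 genes had an unadjusted p under 0.05, 9 higher and 1 lower. The shares of all genes there were 4.93%, 2.1% and 2.82%. Without both samples numbered 4, 15 genes had groups that did not overlap, against 11.9% of all genes. With the replicate number as a block, 15 genes had an unadjusted p under 0.05, 13 higher and 2 lower (Nrp2 and Efna3). The same held for 8.94% of all genes, 3.45% higher and 5.49% lower. Under that block Nrp2 had limma adjusted p = 0.0776 (0.0776 to 1.00 over its alternatives). Deviations of same-numbered samples correlated at 0.13, −0.043, 0.49 and 0.36 for numbers 1 to 4. Those of numbers 3 and 4 were the highest of all null and wild-type pairs. Foxi3 null 2 correlated best with wild type 1 (0.16), so the numbers were not taken to pair samples. These values do not settle whether the numbers follow litters. None of the 12 genes with an unadjusted p under 0.05 turned its direction under any alternative run, which their choice from the same data makes likely. The deposited array columns that could not be matched to samples were planned as another source of values and were not run, and no guidance gene had a second row to choose. The dim genes limit what can be said of 16 members.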
